A study of Bos taurus with 8 samples.

Results

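YAP1 and TAZ (the product of *WWTR1*), the TEAD transcription factors they bind, 2 vestigial-like cofactors of TEADs and 2 secreted target gene products were followed in bovine chondrocytes of the superficial and the deep zone. The genes were chosen by name: *YAP1*, *WWTR1*, *TEAD1* to *TEAD4*, *VGLL3*, *VGLL4*, *CTGF* and *CYR61*. All 10 were found among the 24596 genes of the count table, and all 10 passed the filter on low counts that left 12857 genes for testing. The cells were wild-type primary chondrocytes from knee cartilage of calves aged 1 to 2 weeks. Superficial zone chondrocytes (SZCs) came from the surface slice of cartilage cores and deep zone chondrocytes (DZCs) from a slice near the bone. Slices were combined by joint, and the released cells were kept in DMEM/F12 with 10% serum for 3 days before RNA was taken. There were 2 libraries per zone, which the study's methods describe as biological duplicates, and nothing states whether libraries with the same number came from the same animal.

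YAP1 and TAZ are coactivators that carry no DNA-binding domain of their own and act on genes through TEADs. The Hippo kinases STK3 and STK4 activate LATS1 and LATS2, which phosphorylate YAP1 and TAZ and so keep them in the cytoplasm. Cell spreading, stiff substrates and serum release them into the nucleus, where *CTGF* and *CYR61* are standard readouts of their activity. VGLL4 competes with YAP1 for TEADs, and VGLL3 binds TEADs as well. In cartilage, *CTGF* is best known as a product of prehypertrophic and hypertrophic chondrocytes of the growth plate. The activity of YAP1 and TAZ is set largely by phosphorylation and location, which RNA levels do not show.

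The libraries held 19918970 to 21890549 counts. Levels are given as CPM, the count of a gene relative to the library total, after scaling by the trimmed mean of *M* values (TMM), which allows for *COL2A1* taking 6.31% to 24.5% of a library. The zone labels were borne out by *PRG4*, the lubricin gene, at 3166 and 2024 CPM in SZCs against 15.3 and 61.5 CPM in DZCs. All 8 chondrocyte markers were present in every library. Of these, 5 had DZCs above SZCs without overlap, beside 20.5% of all genes. The median log2 fold change was -1.11, and *MATN3* was called (edgeR exact test FDR 0.00212), beside 0.700% of all genes. The fibroblast list summed to 16545 and 24772 CPM in SZCs and to 3316 and 13339 CPM in DZCs. Endothelial and leukocyte lists reached at most 32.9 CPM in any library. DZC replicate 1 stood apart by its low cell cycle transcripts. The 6 cycling markers summed to 14.5 CPM there and to 163 to 286 CPM in the other 3 libraries. In all, 377 genes (2.93% of those tested) passed a false discovery rate (FDR) of 0.05 in the exact test of edgeR, 287 of them higher in SZCs and 90 higher in DZCs.

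None of the 10 genes passed this threshold in edgeR's exact test, and 2 of them, *CTGF* and *VGLL4*, had an unadjusted p-value below 0.05. Across all genes tested, 9.09% had such a p-value. The quasi-likelihood test of edgeR called 0 of the 10, with 0 calls among all 12857 genes, and DESeq2 called 1, *CTGF*, beside 3.09% of all genes. Scaling by library totals called 1, *VGLL4*, beside 2.58%, and the replicate number as a block called 0 beside 2.70%. With a library left out, 0 were called without SZC replicate 1 (0.436% of all genes) or SZC replicate 2 (1.13%). *CTGF* and *VGLL4* were called without DZC replicate 1 (6.67%), and *CTGF* and *VGLL3* without DZC replicate 2 (20.7%). The median log2 fold change (SZCs over DZCs) of the 10 genes was -0.32, beside -0.04 over all genes tested. The libraries of the zones did not overlap for 4 of the 10 genes. DZCs lay above SZCs for *CTGF*, *WWTR1* and *TEAD4*, and SZCs above DZCs for *VGLL4*. Such separation was seen in 41.5% of all genes tested, so 4 of 10 is near the background. By direction it was 21.0% with SZCs above and 20.5% with DZCs above.

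**Figure D1:**
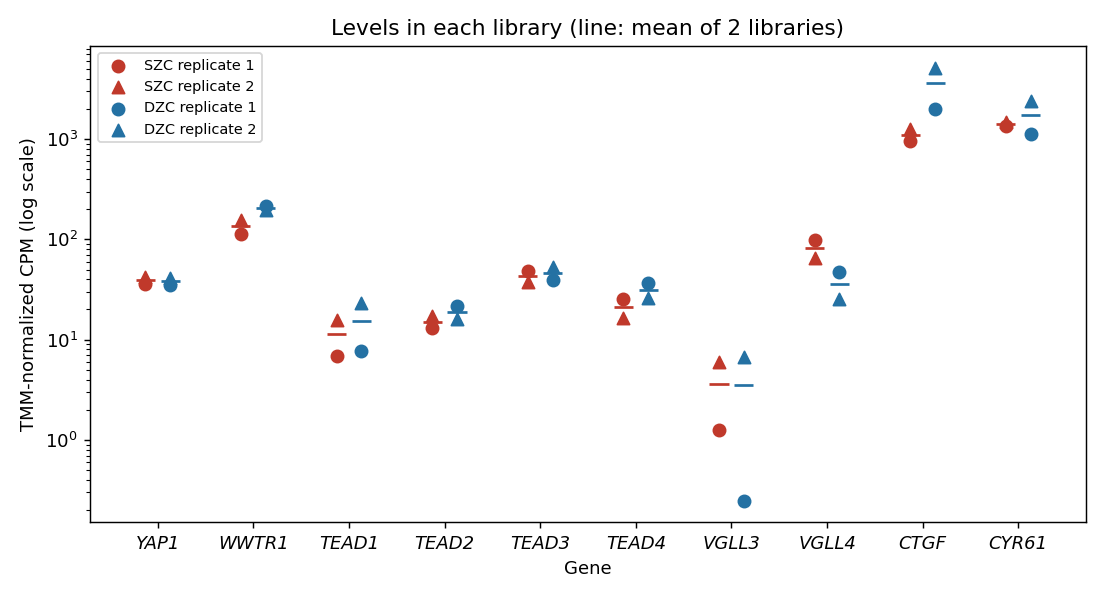
TMM-normalized CPM (log scale) of the 10 genes in each library, with SZCs in red, DZCs in blue, circles for replicate 1, triangles for replicate 2 and lines for zone means. *CTGF* is at 2016 and 5162 CPM in DZCs, above both SZC libraries, while *TEAD1* and *VGLL3* split by library within each zone.

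The coactivators came first. *YAP1* (ENSBTAG00000039307) had the lowest biological coefficient of variation of the 10, 0.236. It was at 36.0 and 42.1 CPM in the SZC libraries and at 35.1 and 41.5 CPM in the DZC libraries. Both zones therefore covered the same range. The fitted log2 fold change was 0.03 with a standard error of 0.34 (edgeR exact test FDR 1). Its 95% interval ran from 0.638-fold to 1.63-fold of the DZC level, so differences within that range could not be resolved with 2 libraries per zone.

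*WWTR1* (ENSBTAG00000007814), which encodes TAZ, was at 112 and 157 CPM in SZCs and at 215 and 197 CPM in DZCs. Both DZC libraries were above both SZC libraries. The fit placed DZCs 1.53-fold above SZCs (log2 fold change -0.61, standard error 0.37), and edgeR's exact test put the FDR at 0.735. Its 95% interval, 0.924-fold to 2.53-fold, includes no difference. The direction was the same under all 12 alternatives that were run. The largest size, -0.88, was reached without SZC replicate 2, and the smallest, -0.29, with library totals alone. Without SZC replicate 1 it was -0.40.

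Within a library, the ratio of *YAP1* to *WWTR1* counts does not depend on how libraries are scaled. Its log2 value was -1.64 and -1.90 in SZCs and -2.62 and -2.25 in DZCs. The share of *YAP1* in the pair was thus lower in both DZC libraries. The zone means differed by 0.66 on the log2 scale. By exact permutation, two-sided, p was 0.33 (0.5 after adjustment over 3 ratios), which is the smallest value that 2 libraries against 2 allow. The ratio also reflects transcript length, so it is compared here between libraries only.

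The 4 TEAD genes encode the DNA-binding partners of YAP1 and TAZ. Their summed level was 93.6 and 86.9 CPM in SZCs and 106 and 118 CPM in DZCs, so the DZC libraries were both higher by a small margin. No TEAD gene passed the threshold, and the log2 fold changes lay between -0.58 and -0.11.

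*TEAD4* (ENSBTAG00000019788) was at 25.5 and 16.6 CPM in SZCs and at 36.7 and 26.2 CPM in DZCs. The lower DZC library was only just above the higher SZC library. DZCs were 1.49-fold higher in the fit (log2 fold change -0.58, standard error 0.41, edgeR exact test FDR 0.846), a difference close to that between libraries of a zone. The log2 fold change was -0.93 without SZC replicate 1, -0.30 without SZC replicate 2 and -0.23 with library totals alone.

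*TEAD2* (ENSBTAG00000016349) ranged from 13.2 to 17.1 CPM in SZCs and from 16.1 to 21.8 CPM in DZCs. *TEAD3* (ENSBTAG00000019495) was at 47.9 and 37.6 CPM in SZCs and at 39.7 and 52.5 CPM in DZCs. The zones overlapped for both genes. Their log2 fold changes were -0.33 (standard error 0.41) and -0.11 (standard error 0.36), and both changed sign, to 0.019 and 0.15, under scaling by library totals alone.

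*TEAD1* (ENSBTAG00000032657) had the largest differences between libraries of a zone among the TEAD genes. It was at 6.95 CPM in SZC replicate 1 and 15.6 CPM in SZC replicate 2, and at 7.71 CPM in DZC replicate 1 and 23.1 CPM in DZC replicate 2. The libraries of a zone therefore differed by 2.24-fold in SZCs and 2.99-fold in DZCs, whereas the zones differed by 1.37-fold in the fit. The fitted value of -0.45 on the log2 scale had a standard error of 0.69 (edgeR exact test FDR 1). It became 0.56 without DZC replicate 2 and 0.016 without SZC replicate 1.

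The make-up of the TEAD transcripts followed the same split. *TEAD1* gave 7.43% of TEAD counts in SZC replicate 1 (95% Wilson interval 6.37% to 8.64%) and 7.28% in DZC replicate 1 (6.14% to 8.61%). In the libraries numbered 2 it gave 18.0% in SZCs (16.3% to 19.7%) and 19.6% in DZCs (18.1% to 21.1%). These intervals cover counting error only. *TEAD3* held the largest share of TEAD counts in all 4 libraries, 37.5% to 51.2%, uncorrected for transcript length. The log2 ratio of *TEAD1* to the other 3 together had a mean of -2.92 ± 1.02 (SD, n = 2) in SZCs and -2.85 ± 1.15 (SD, n = 2) in DZCs, with p = 1 by exact permutation (two-sided).

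**Figure D2:**
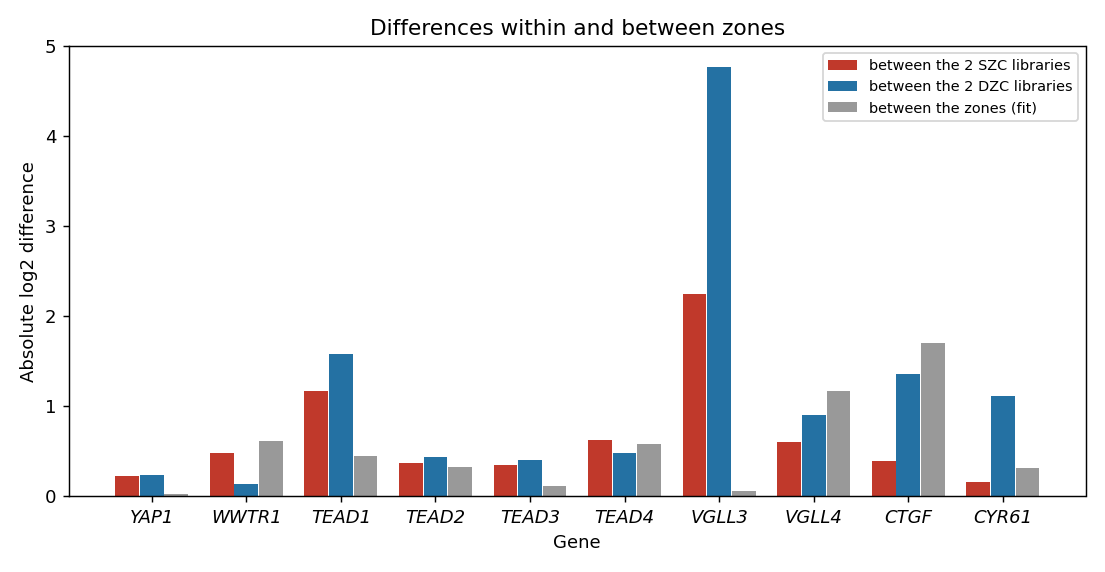
Absolute log2 difference between the 2 SZC libraries (red), between the 2 DZC libraries (blue) and between the zones in the fit (grey) for each gene. For *YAP1*, *TEAD1*, *TEAD2*, *TEAD3* and *VGLL3* both differences within a zone exceed the zone difference, most widely for *VGLL3*, and for *CTGF*, *VGLL4* and *WWTR1* the zone difference is the tallest bar.

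Of the vestigial-like cofactors, *VGLL4* (ENSBTAG00000018600) was the member with the largest excess in SZCs. It was at 98.7 and 65.1 CPM in SZCs and at 47.3 and 25.3 CPM in DZCs. Both SZC libraries exceeded both DZC libraries. The level was 2.26-fold higher in SZCs, with a 95% interval of 1.22-fold to 4.19-fold (log2 fold change 1.17, standard error 0.46). The edgeR exact test FDR was 0.214, and scaling by library totals alone brought it to 0.0133. Dropping single libraries moved the log2 fold change between 0.81 (without DZC replicate 2) and 1.70 (without DZC replicate 1). Fibroblast markers were also higher in SZCs, with 4 of 6 above in SZCs without overlap (21.0% of all genes), all 6 counted in every library and 0 called. Mural markers were too, with 4 of 6 above in SZCs beside the same 21.0%. Their sums were 44.3 and 61.0 CPM in SZCs and 9.83 and 31.5 CPM in DZCs, and *RGS5* was at 0 in DZC replicate 1. Within each zone, the fibroblast and mural sums were lower in the library numbered 1, whereas *VGLL4* was higher there. The leukocyte list summed to 19.4 and 32.9 CPM in SZCs and 6.66 and 15.8 CPM in DZCs, with 1 of 6 markers, *CD14*, above in SZCs. Of the adipocyte markers, *FABP4* was called higher in SZCs (12.2 and 9.44 CPM against 1.18 and 1.57 CPM, edgeR exact test FDR 3.32e-05), *PLIN1* overlapped, and *LEP* was at 0 in 3 libraries. The part of these markers in the *VGLL4* values was not tested.

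*VGLL3* (ENSBTAG00000026156) was the lowest of the 10 in counts and the most variable. Its counts were 28 and 140 for SZCs and 4 and 151 for DZCs, which correspond to 1.27 and 6.03 CPM in SZCs and to 0.249 and 6.77 CPM in DZCs. In each zone the library numbered 1 was far below the library numbered 2, by 4.74-fold in SZCs and 27.2-fold in DZCs. The log2 fold change of 0.05 had a standard error of 1.34, and single-library omissions spread it from -1.46 to 3.86. The highest value came without DZC replicate 2, where the only DZC library left had 4 counts. A zone difference of *VGLL3* was thus not resolved. *TEAD1* and *VGLL3* were among 468 genes (3.64% of those tested) that were more than 2-fold lower in the library numbered 1 of both zones.

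The other vestigial-like genes were near or below detection. *VGLL1* had 0 and 3 counts in SZCs and 0 and 1 counts in DZCs. *VGLL2* had 0 counts in every library, which allows up to 0.187 CPM in the library with the highest limit.

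The target genes differed from each other. *CTGF* (ENSBTAG00000006367, listed under its current symbol *CCN2*) had the largest zone difference of the 10. It was at 951 and 1247 CPM in SZCs and at 2016 and 5162 CPM in DZCs, from 20925 and 28954 counts in SZCs and 32407 and 115170 counts in DZCs. Both DZC libraries were above both SZC libraries, and the DZC libraries differed from each other by 2.56-fold. The level was 3.27-fold higher in DZCs, with a 95% interval of 1.54-fold to 6.94-fold (log2 fold change -1.71, standard error 0.55). The unadjusted p-value of edgeR's exact test was 0.003 and the FDR 0.0847, which missed the threshold. DESeq2 gave an FDR of 0.0229 for the same difference. The quasi-likelihood test of edgeR gave 0.488, and 0.246 with the replicate number as a block. Under scaling by library totals, edgeR's exact test gave an FDR of 0.488.

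The 8 hypertrophic and bone markers were unequal between the DZC libraries, and not all in the same direction. Their summed level was 113 and 110 CPM in SZCs and 35.1 and 274 CPM in DZCs, mostly from *SPP1*. *IHH*, which encodes the Indian hedgehog ligand of prehypertrophic chondrocytes, had 13 and 5 counts in SZCs and 194 and 48 in DZCs. Of the 8 markers 5 were tested, and *IHH* alone passed (log2 fold change -4.12, edgeR exact test FDR 0.016). Of all genes, 0.700% were called higher in DZCs. The higher *IHH* value was in DZC replicate 1. *COL10A1*, *MMP13*, *IBSP*, *ALPL* and *SP7* instead had their highest counts in DZC replicate 2, with 221 for *COL10A1* and 468 for *MMP13*, and had 0 or 1 count in DZC replicate 1. *PHOSPHO1* had 65 and 49 counts in the DZC libraries, beside 51 and 134 in SZCs. Without DZC replicate 2 the log2 fold change of *CTGF* was -0.86, and without DZC replicate 1 it was -2.23. The chondrocyte markers summed to 120684 and 123310 CPM in SZCs and to 485946 and 188467 CPM in DZCs. These sums were higher in DZCs, as *CTGF* was. Within DZCs the higher sum was in replicate 1, whereas *CTGF* was higher in replicate 2. The part of hypertrophic cells or of the chondrocyte markers in the values of *CTGF*, and of *NF2*, *FJX1* and *GADD45A* described further on, was not tested. In bulk RNA, a change in the number of cells that express a gene and a change per cell cannot be told apart.

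*CYR61* (ENSBTAG00000009844, listed as *CCN1*) was at 1338 and 1497 CPM in SZCs and at 1111 and 2399 CPM in DZCs. DZC replicate 1 was the lowest and DZC replicate 2 the highest library, so the zones overlapped. The fit gave a log2 fold change of -0.31 with a standard error of 0.50 (edgeR exact test FDR 1) and turned to 0.37 without DZC replicate 2.

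The ratio of *CTGF* to *CYR61* within a library differed between zones by more than between libraries of a zone. Its log2 value was -0.49 and -0.26 in SZCs and 0.86 and 1.11 in DZCs. The zone means were -0.38 ± 0.16 (SD, n = 2) and 0.98 ± 0.17 (SD, n = 2), a difference of -1.36. The same exact permutation test again reached its floor of 0.33 (0.5 after adjustment). Leaving out each library in turn kept the difference between -1.48 and -1.24. *CYR61* counts exceeded *CTGF* counts in both SZC libraries, and the reverse held in both DZC libraries.

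**Figure D3:**
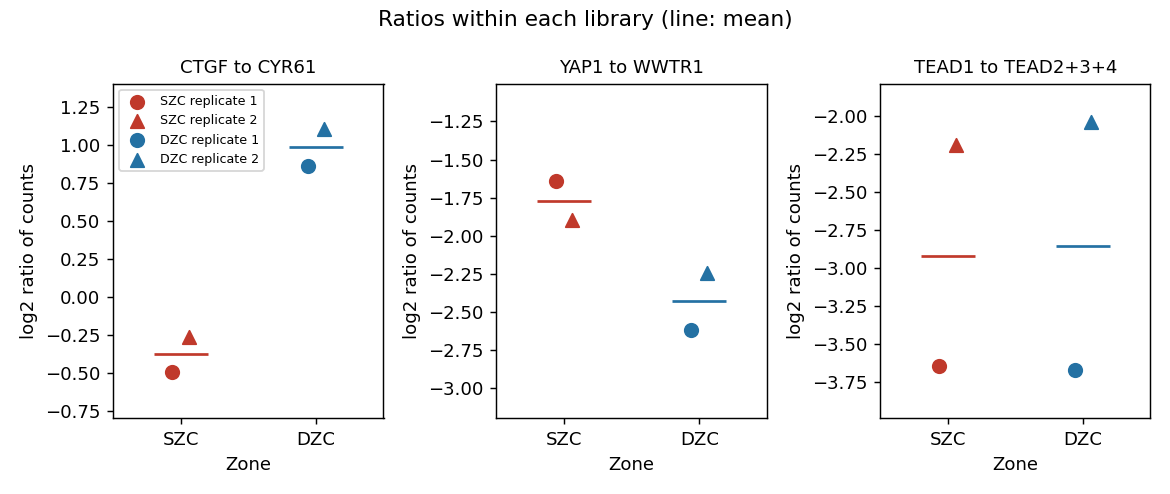
Within-library log2 ratios of counts for *CTGF* to *CYR61*, *YAP1* to *WWTR1*, and *TEAD1* to the sum of the other TEAD genes, with the same span on each vertical axis. The first ratio lies below 0 in SZCs and above 0 in DZCs, whereas the third differs more between libraries of a zone than between zone means.

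**Figure D4:**
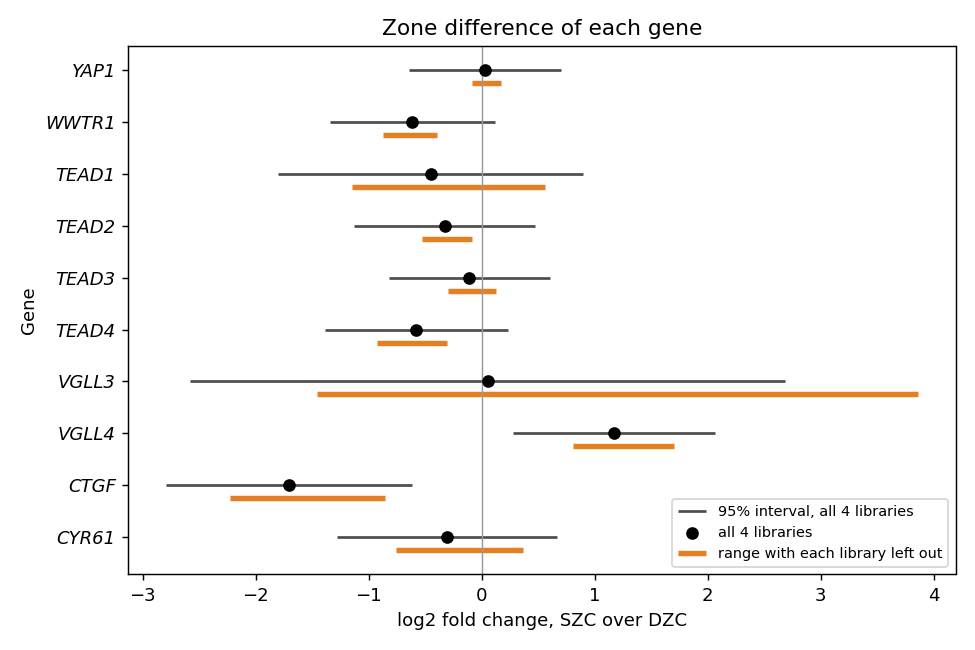
Log2 fold change (SZCs over DZCs) of each gene with its 95% interval (black) and the range when each library is left out (orange). The intervals of *VGLL4* and *CTGF* do not reach 0, and the ranges of *WWTR1*, *TEAD2*, *TEAD4*, *VGLL4* and *CTGF* stay on the same side of 0.

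The genes whose profiles lay nearest to *CTGF* over the 4 libraries were *NXN*, *PAWR*, *NEDD4L* and *ESRP1*, at Euclidean distances of 0.253 to 0.281 between centred log2(CPM + 1) values. Those nearest to *CYR61* were *MAP3K1*, *REXO5*, *IRF1* and *GALNT10*, at distances of 0.0561 to 0.0632. Near *CTGF*, *PAWR* had 13 to 193 counts and *ESRP1* 5 to 99, levels at which adding 1 to the CPM shrinks differences. Their fitted log2 fold changes were -2.37 and -2.87, beside -1.71 for *CTGF*. With only 4 libraries, such likeness is a description of these libraries.

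Other genes of the pathway were examined from lists chosen with earlier results of these data known. These held 58 genes, of which 54 were tested. In edgeR's exact test 2 of them, *FJX1* and *GADD45A*, were higher in DZCs and 0 were higher in SZCs, beside 0.700% and 2.23% of all genes tested. DESeq2 called 3 higher in DZCs, the added gene being *NF2*, and 0 higher in SZCs, beside 3.09% of all genes in either direction. Scaling by library totals shifts the median log2 fold change of all genes by 0.30. The calls were then instead *AMOTL1* and *DCHS1*, both higher in SZCs, beside 2.58% of all genes in either direction. An unadjusted p-value below 0.05 in edgeR's exact test was found for 11 of the 54 genes, beside 9.09% of all genes tested.

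**Figure D5:**
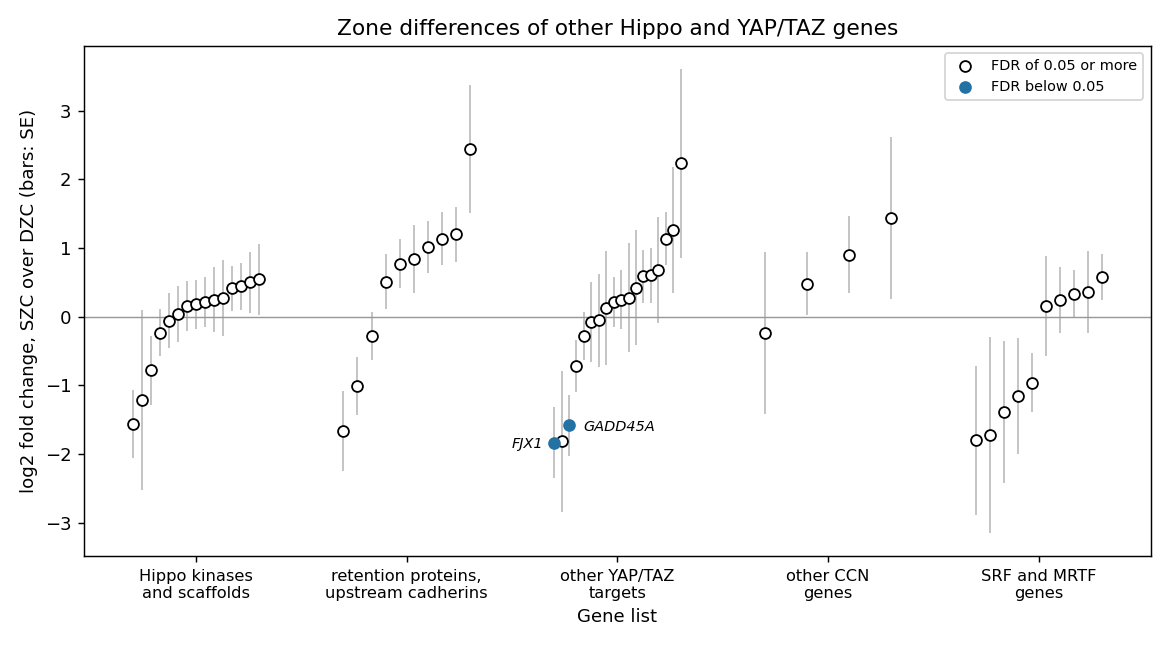
Log2 fold changes (SZCs over DZCs) with standard errors of the tested genes in 5 pathway lists, each list sorted by its values. Filled points are the 2 genes with an FDR below 0.05 in edgeR's exact test, *FJX1* and *GADD45A*, and open points are all others.

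Among the 15 Hippo kinases, adaptors and scaffolds, 0 passed in edgeR's exact test, and 1 had an unadjusted p-value below 0.05, beside 2.93% and 9.09% of all genes. The median log2 fold change was 0.18. The largest difference in this list was that of *NF2*, which encodes merlin, an upstream activator of LATS kinases. It was at 58.9 and 54.7 CPM in SZCs and at 237 and 98.6 CPM in DZCs. The DZC libraries were both higher but differed by 2.40-fold, and the log2 fold change was -1.56 (standard error 0.50, edgeR exact test FDR 0.0731). It was -0.79 without DZC replicate 1 and -2.04 without DZC replicate 2. The most abundant genes of this list by CPM, *WWC2*, *MAP4K4* and *FRMD6*, had log2 fold changes of -0.78, -0.23 and 0.03, and none of them passed the test.

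The list of proteins that hold YAP1 or TAZ outside the nucleus, LATS inhibitors and upstream cadherins had the most uniform separation by zone. All 10 of its genes had zones that did not overlap, 7 with SZCs above and 3 with DZCs above, beside 41.5% of all genes. Of the 10, 7 had an unadjusted p-value below 0.05 in edgeR's exact test, beside 9.09% of all genes, yet 0 passed the FDR threshold. The list was chosen with earlier results of these data known, so these counts describe its genes and are no test of the list. *DCHS1* and *FAT4*, a ligand and receptor pair of large cadherins, lay above in SZCs. *DCHS1* was at 239 and 162 CPM in SZCs and at 102 and 73.2 CPM in DZCs (log2 fold change 1.20, edgeR exact test FDR 0.0931). *FAT4* was at 88.3 and 108 CPM in SZCs and at 3.17 and 32.9 CPM in DZCs, with an FDR of 0.26 in the same edgeR test. Its DZC libraries differed by 10.4-fold, and its log2 fold change of 2.44 became 1.58 without DZC replicate 1 and 4.96 without DZC replicate 2. For *DCHS1*, leaving out single libraries moved the log2 fold change between 0.89 (without SZC replicate 1) and 1.46 (without DZC replicate 1). The fibroblast and mural markers had median log2 fold changes of 1.20 and 1.503, beside 0.81 for this list and -0.04 for all genes, and the fibroblast marker *FAP*, at 4.48 CPM, was also lowest in DZC replicate 1. Their part in these values was not tested.

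*AMOTL1*, an angiomotin that binds YAP1, and *PTPN14*, a phosphatase that retains it in the cytoplasm, had log2 fold changes of 1.01 and 1.14, with FDR values of 0.182 and 0.104 in edgeR's exact test. Without DZC replicate 1 the values were 1.35 for *AMOTL1* and 0.87 for *PTPN14*, and without DZC replicate 2 they were 0.76 and 1.48. *AMOTL2*, the angiomotin with the highest level in this list by CPM, had a log2 fold change of -0.28. The LIM domain proteins AJUBA and WTIP restrain LATS kinases. *AJUBA* was at 5.91 and 11.5 CPM in SZCs and at 16.7 and 38.5 CPM in DZCs (log2 fold change -1.66, edgeR exact test FDR 0.135), and *WTIP* had a log2 fold change of -1.01 (FDR 0.307). For *AJUBA* the value was -2.13 without DZC replicate 1 and -0.92 without DZC replicate 2. For *WTIP* it was -0.47 and -1.38. *LIMD1*, of the same family but outside the rule for named genes, was on the other side at 0.77.

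The list of other YAP/TAZ target genes, known from cultured cells, held both calls. Of its 20 genes 18 were tested, 2 were higher in DZCs and 0 in SZCs in edgeR's exact test (0.700% and 2.23% of all genes), and the median log2 fold change was 0.23. *FJX1*, the vertebrate counterpart of a Golgi kinase that acts on Fat and Dachsous cadherins, was at 6.13 and 3.45 CPM in SZCs and at 20.5 and 13.7 CPM in DZCs. It was 3.57-fold higher in DZCs (log2 fold change -1.84, standard error 0.52, edgeR exact test FDR 0.0256). *GADD45A*, a stress-induced growth arrest gene, was at 21.2 and 43.7 CPM in SZCs and at 94.99 and 99.3 CPM in DZCs. It was 2.99-fold higher in DZCs (log2 fold change -1.58, standard error 0.45, edgeR exact test FDR 0.0239). Both calls were lost in the quasi-likelihood test of edgeR (FDR 0.282 and 0.317), which called 0 of all genes tested, and with library totals (0.2 and 0.31), and neither passed without SZC replicate 1 or without SZC replicate 2.

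The most abundant genes of the signature by CPM did not pass the test, with log2 fold changes of 0.42 for *CCDC80* and 0.25 for *CRIM1*. *RBMS3* had 35 and 98 counts in SZCs and 0 and 27 in DZCs (log2 fold change 2.23, standard error 1.37). *ANKRD1*, a widely used YAP target, was singled out after its counts were seen. It had 0 and 9 counts in SZCs and 9 and 434 in DZCs and did not pass the filter. A single library, DZC replicate 2, held nearly all of its reads.

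Of the other CCN genes, *CCN3* was at 182 and 1189 CPM in SZCs and at 132 and 1485 CPM in DZCs. Its low and high libraries carried the same numbers as those of *TEAD1* and *VGLL3*. *CCN5* was at 20.8 and 24.8 CPM in SZCs and at 0.56 and 16.3 CPM in DZCs (log2 fold change 1.43, standard error 1.18), and *CCN6* had a log2 fold change of 0.48. None of the 4 other CCN genes passed in edgeR's exact test, and 0 had an unadjusted p-value below 0.05, against the same all-gene shares of 2.93% and 9.09%.

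SRF and its MRTF coactivators form another serum-responsive input to *CTGF* and *CYR61*. Of the 10 genes of that list 0 passed in edgeR's exact test, 1 had an unadjusted p-value below 0.05, and 3 did not overlap between zones, beside 2.93%, 9.09% and 41.5% of all genes. *ACTA2*, smooth muscle actin, was singled out after its values were seen, and was at 11.5 and 93.2 CPM in SZCs and at 53.2 and 311 CPM in DZCs. In each zone the library numbered 1 was again the lower. *FLNA*, *MYL9* and *TPM1*, the most abundant of the list by CPM, had log2 fold changes of 0.15, -0.96 and -1.16. *MYL9* was the gene with the unadjusted p-value below 0.05, and its DZC libraries, at 202 and 181 CPM, were above its SZC libraries, at 69.4 and 128 CPM.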

How the data were processed

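The authors sequenced RNA of cultured SZCs and DZCs, with 2 libraries per zone. Per the study's methods, 75-bp single-end reads were aligned with STAR 2.5.2b to the Ensembl build UMD 3.1 and counted without regard to strand. The deposited values are raw read counts for 24596 genes. A second deposited table, which holds log2 fold changes and FDR values of the authors' own comparison, was used only to fill gene names. ATAC-Seq was not analysed here.

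The members and gene lists were chosen with earlier results of these data known. Of the 10 members, 8 were found by name, and *CTGF* and *CYR61* under their current symbols *CCN2* and *CCN1*. Counts were scaled by TMM and compared between zones with the exact test of edgeR 4.0.16 (R 4.3.3), as in the study's methods, after edgeR's default filter on low counts, with Benjamini–Hochberg adjustment over all 12857 genes tested. Totals of 19918970 to 21890549 counts put 3 counts at 0.129 to 0.187 CPM. Alternatives were the quasi-likelihood test, DESeq2 1.42.0, other filters and scalings, the replicate number as a block, and each library left out. Named genes of the pathway lists are those called, those with zones that did not overlap and a log2 fold change of at least 1 in size, and the 3 with the highest mean CPM per list, while single markers, *ANKRD1* and *ACTA2* were named after their values were seen. Only the exact test and the quasi-likelihood test without a block were tried on simulated data. Where dispersion varied between genes, the exact test made more false calls than its FDR threshold allows, and the quasi-likelihood test recovered no changed gene. Sequences and transcript lengths were not used here, so any order or ratio of counts or CPM between genes is uncorrected for transcript length.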

Additional observations from a re-analysis of the deposited data

How the results depend on the processing

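*CTGF*, *VGLL4*, *WWTR1* and *TEAD4* kept their direction under all 12 alternatives. The quasi-likelihood test called 0 genes, 0 of the members and 0 of the pathway genes (0 higher in DZCs), with 1126 genes, 2 members and 10 pathway genes at an unadjusted p-value below 0.05. DESeq2 called 1 member (*CTGF*). Scaling by library totals called 1 member (*VGLL4*), put 2 pathway genes higher in SZCs and 0 higher in DZCs, and reversed *TEAD2* (0.019) and *TEAD3* (0.15). The share of all calls that were higher in SZCs was 86.7% with totals and 76.1% with TMM. Leaving out each library in turn, which assumes that a lone library varies like the other zone, called 58 to 2725 genes, 0 to 2 members and 0 to 23 pathway genes (0 to 18 higher in SZCs and 0 to 11 higher in DZCs). The extremes for all genes were without SZC replicate 1 and without DZC replicate 2. Log2 fold changes then ran from -0.088 to 0.17 for *YAP1*, -1.15 to 0.56 for *TEAD1*, -0.30 to 0.12 for *TEAD3*, -1.46 to 3.86 for *VGLL3* and -0.75 to 0.37 for *CYR61*. The zone difference of the log2 ratio of *TEAD1* to the other TEAD genes ran from -0.88 to 0.75. The cause of these changes was not tested.

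Libraries share replicate numbers but no stated joint, and deviations of same-numbered libraries had a correlation of 0.42 across 12857 genes. Blocking on the replicate number gave 347 calls by quasi-likelihood (277 shared with the exact test), 0 of them members and 5 of them pathway genes, 1 higher in SZCs (*FAT4*) and 4 higher in DZCs (*FJX1*, *GADD45A*, *AJUBA* and *ACTA2*). With 2 libraries per zone, *VGLL3*, *ANKRD1*, *RBMS3* and *CCN5* were limited by counts of 9 or fewer in at least 1 library, and omission of a library moved *CCN5* from 0.49 to 5.35 and *RBMS3* from 1.27 to 8.90 on the log2 scale, the last with no DZC count left and so set by the prior count.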
